A study of Mus musculus with 2 samples.

Results

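Nuclear receptors are transcription factors, many of which are switched by a small lipid-soluble ligand such as a steroid, a thyroid hormone, a retinoid or an oxysterol. The 46 genes described here were taken by symbol from a list of the superfamily, with no use of measured values, out of 43346 mouse genes in the tables, and all 46 were found by gene identifier. They were measured by total RNA sequencing of hearts of B6NCrl mouse embryos at 11.5 days, when the looped tube is forming chambers. The design has 1 group of 2 libraries, replicate 1 from a pool of 109 embryos and replicate 2 from a pool whose size the labels do not give. Both pools mixed male and female embryos, were recorded as separate biosamples of the same donor identifier, and have no treatment or engineered allele in the labels. RNA was extracted with mirVana, 10 ng with a size range over 200 entered each library, and spike-in RNAs were added.

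A typical receptor has 2 zinc fingers that read DNA and a ligand-binding domain that exchanges corepressors for coactivators when the ligand binds. The receptors for retinoic acid, thyroid hormone, oxysterols, fatty acids and vitamin D bind DNA as pairs with a retinoid X receptor (RXR), steroid receptors act as homodimers, and orphan receptors have no settled natural ligand. In mice, retinoic acid signalling through RAR and RXR is required for formation of the ventricular wall and of the outflow tract, and COUP-TFII (Nr2f2) for atrial and venous development.

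The part of the protein that sets which DNA sequence is read is the P-box, 6 residues that begin at the third zinc-binding cysteine of the first finger. The bases that encode it are shown for 1 member each of several classes and for all 3 members of the Nr2f class, which was the most abundant after the first. Each line runs over 69 bases, 5′ to 3′ on the coding strand, from the first cysteine codon of the first finger, with the 18 bases of the P-box in capitals. The sequences are from GENCODE M21 transcripts on GRCm38, and each lies within a single coding exon.
Nr1h2, chr7:44552100-44552168, minus strand: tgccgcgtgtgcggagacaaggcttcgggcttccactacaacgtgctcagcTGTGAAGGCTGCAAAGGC
Nr2f6, chr8:71381035-71381103, minus strand: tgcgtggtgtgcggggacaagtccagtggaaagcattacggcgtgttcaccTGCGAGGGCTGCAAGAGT
Nr2f2, chr7:70360027-70360095, minus strand: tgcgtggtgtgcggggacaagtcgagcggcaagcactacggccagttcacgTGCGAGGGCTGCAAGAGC
Nr2f1, chr13:78198259-78198327, minus strand: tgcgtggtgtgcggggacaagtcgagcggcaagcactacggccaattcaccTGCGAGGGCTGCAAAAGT
Esrrg, chr1:188043659-188043727, plus strand: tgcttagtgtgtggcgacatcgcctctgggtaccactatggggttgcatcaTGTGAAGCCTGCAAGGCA
Esr1, chr10:4746717-4746785, plus strand: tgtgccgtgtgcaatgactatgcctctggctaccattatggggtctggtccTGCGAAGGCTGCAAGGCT

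Grouped by the translation of those 18 bases, 27 members shared the P-box of Nr1h2, a type known to read sites that hold AGGTCA. These 27, of which 19 were detected, held 60.9% of the summed TPM of all members in replicate 1 and 62.1% in replicate 2. TPM is transcript abundance corrected for length and scaled to a fixed sum per library. The Nr2f class of 3 genes held 20.4% and 19.1%, and the class of Esrrg, Esrra and Esrrb held 11.0% and 11.1%. The class of Nr3c1, Nr3c2 and Pgr, known for glucocorticoid response elements, held 4.59% and 4.52%, most of it from Nr3c1. Esr1 and Esr2, the oestrogen receptors, held 0.380% and 0.424%. The 2 members of the NR0 subfamily, Nr0b1 and Nr0b2, encode no zinc fingers and held 2.46% and 2.75%, nearly all of it from Nr0b2.

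A member is called detected where both libraries list at least 1 TPM for it. Of the 46 members, 27 were detected (58.7%), beside 56.4% of all protein-coding genes, so the share of receptors detected was near that background. Detected receptors lay at low to moderate levels. Their median was 7.02 TPM in replicate 1 and 7.26 in replicate 2, against 15.66 and 16.23 over all detected protein-coding genes. Over all 46 members the median was 2.04 and 1.44 TPM, against 2.94 and 2.91 for protein-coding genes. The summed level of the members was 289 and 295 TPM, and the 5 highest genes held 50.7% and 51.1% of it. In these whole hearts, fewer cells of a type and less RNA per cell cannot be told apart.

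**Figure D1:**
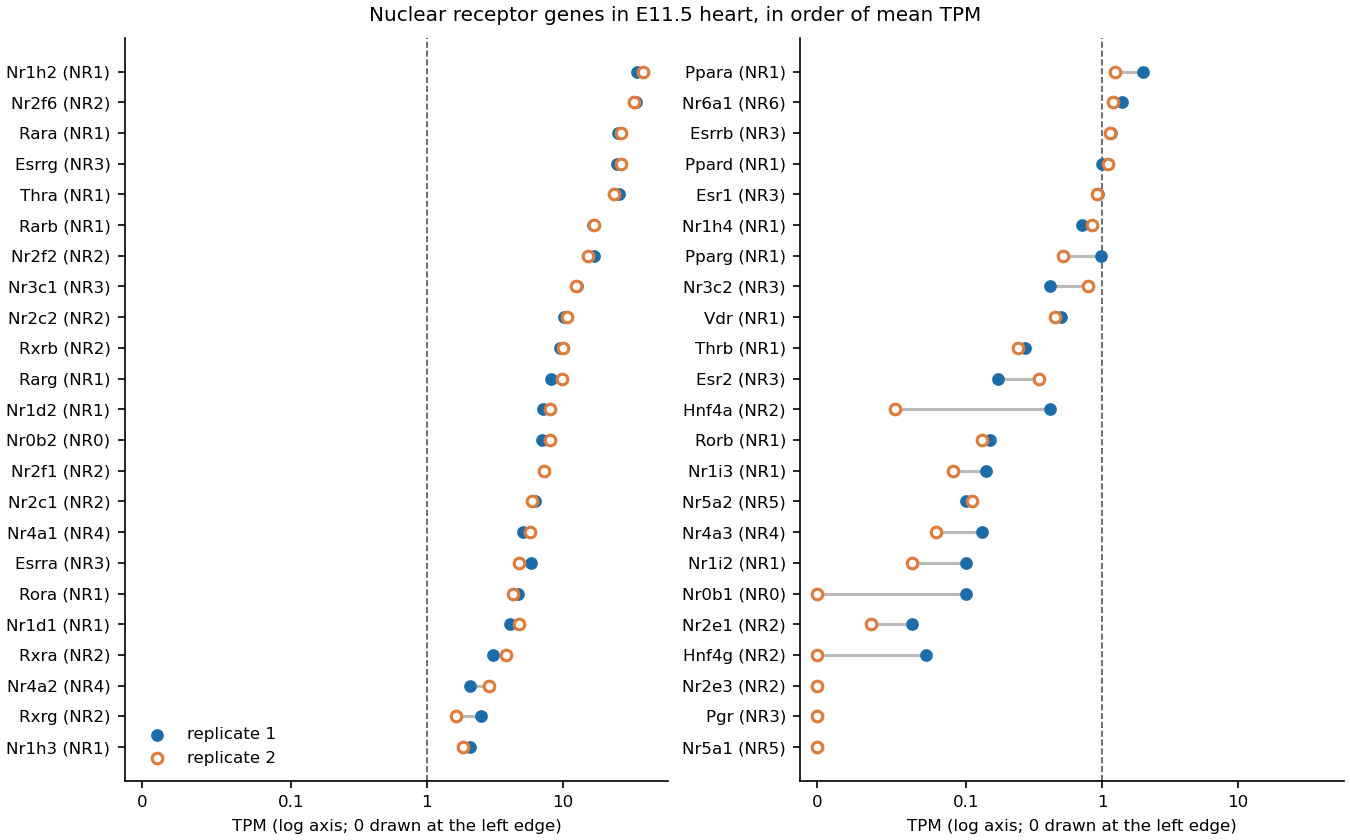
TPM of the 46 nuclear receptor genes in replicate 1 (filled points) and replicate 2 (open points) on a log axis, in order of mean TPM, with the subfamily in brackets and a dashed line at 1 TPM. The 27 detected genes lie right of the line in both libraries, Hnf4a has the widest gap among genes with counts in both, and Nr2e3, Pgr and Nr5a1 are at 0.

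The libraries held 37617442 expected counts in replicate 1 and 27642765 in replicate 2, of which members held 22404 and 16571. The tissue label was checked against markers of heart cell types. All 8 cardiomyocyte markers, 6 of 6 endocardial and endothelial, 4 of 4 epicardial and 4 of 4 cushion mesenchyme markers were detected, and the cardiomyocyte markers summed to 20820 and 22503 TPM. Genes of other cells were present at low levels, with summed TPM of 30.1 and 30.8 for 5 neuronal markers and 73.5 and 80.0 for 5 macrophage markers. Liver and yolk sac markers differed between the libraries, at 292 TPM in replicate 1 and 79.3 in replicate 2, and this is taken up below with the members it moves with.

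Among the 18 members of subfamily NR1, 11 were detected, and the subfamily held 47.0% of the members' summed TPM in replicate 1 and 47.8% in replicate 2. The highest receptor of all was Nr1h2, which encodes the oxysterol receptor LXRβ (chr7:44549616-44553951), at 35.30 and 39.43 TPM. That places it at the 84.9 percentile of protein-coding genes. Its relative Nr1h3, the LXRα of liver and macrophages, had 2.09 and 1.84 TPM. Nr1h2 was thus 19.0-fold higher, and the libraries did not overlap.

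The 3 retinoic acid receptors were all detected and together held 50.6 TPM in replicate 1 and 54.0 in replicate 2. Rara (chr11:98927818-98974942) had 25.54 and 26.97 TPM. Rarb (chr14:16430839-16819156), itself a known retinoic acid target, had 16.76 and 17.12 TPM. Rarg had 8.27 and 9.90 TPM, the lowest of the 3 in both libraries. Rara stood 2.90-fold and Rarb 1.87-fold above Rarg. A pair of genes was called apart where the same gene was higher in both libraries and the mean log2 ratio exceeded 0.66. That limit, a 1.58-fold difference, is the 95th percentile of the difference between the libraries over 13354 genes at 1 TPM or more in both. Pairs with a gene below 1 TPM were held to the same limit. Of such genes, Pparg, Nr3c2 and Nr4a3 differed by more than that in TPM between the libraries, and Thrb and Rorb did not. Rara over Rarb, at 1.55-fold, stayed just inside it. With posterior mean TPM, Rara over Rarb passed at a log2 ratio of 0.67, as it did with 1 added to each TPM (0.60, against a limit recomputed the same way), and Rarg over Rarb came inside at -0.38.

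Thyroid hormone receptor RNA came nearly all from Thra (chr11:98740638-98769006), which had 26.22 and 23.77 TPM. Thrb had 0.27 and 0.24 TPM from 45 and 28 counts, so Thra was 98.1-fold higher, the widest ratio of the pairs with counts for both genes in both libraries. The receptors of the fatty acid sensing PPAR family were low. Ppara had 1.98 and 1.25 TPM, Ppard 1.00 and 1.10, and Pparg, the adipocyte regulator, 0.98 and 0.51. Only Ppara over Pparg was apart, at 2.23-fold over all transcripts of each gene. By counts without length correction its log2 ratio was 1.09. Transcripts of Ppara that encode both zinc fingers had 1.11 TPM in each library, close to the 0.98 TPM of Pparg in replicate 1. Its transcripts without a coding sequence had 0.86 and 0.14 TPM. The other PPAR pairs lay within the spread, although Ppard over Pparg passed with posterior mean TPM (log2 ratio 0.94), with counts (1.35) and without replicate 1 (1.11), and Ppara over Ppard passed with posterior mean TPM (0.76 in size) and without replicate 2 (0.99 in size). Over counts without length correction Ppard was the higher of that last pair, by a log2 ratio of 0.26, within the spread.

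The clock repressors Nr1d1 and Nr1d2 (REV-ERBα and β) had 4.12 and 4.77 TPM, and 7.17 and 8.08 TPM. Nr1d2 was the higher in both libraries, 1.72-fold. Rora, which activates through the sites that those repressors occupy, had 4.71 and 4.31 TPM, and its neural and retinal relative Rorb had 0.15 and 0.13. The receptors of bile acids, vitamin D and foreign compounds did not reach 1 TPM in either library. Nr1h4, the bile acid receptor FXR, had 0.71 and 0.84 TPM. Vdr, the vitamin D receptor, had 0.50 and 0.45 TPM. Nr1i3 and Nr1i2, the xenobiotic receptors CAR and PXR, had 0.14 and 0.08 TPM, and 0.10 and 0.04 TPM. Their counts, 11.36 and 4.82 for Nr1i3 and 7 and 2 for Nr1i2, are too few to order them.

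Subfamily NR2, with 8 of 12 members detected, held 31.5% and 30.1% of the summed TPM. The COUP-TF group led it at 59.0 and 56.3 TPM. Nr2f6, the orphan receptor EAR2 (chr8:71374123-71381960), had 34.72 and 33.72 TPM and was the second highest member. Nr2f2, an atrial and venous factor (chr7:70351944-70366735), had 17.01 and 15.34 TPM, and Nr2f1 (COUP-TFI) had 7.28 and 7.26. The order Nr2f6, Nr2f2, Nr2f1 was the same in both libraries, with 2.12-fold between the first pair and 2.22-fold between the second. Over counts without length correction, Nr2f6 over Nr2f2 came within the spread (log2 ratio 0.23 in size).

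The 3 RXR genes, shared partners of the NR1 receptors, summed to only 15.2 and 15.6 TPM. Rxrb (chr17:34031812-34038399) had 9.64 and 10.15 TPM, Rxra 3.08 and 3.81, and Rxrg 2.49 and 1.63. Rxrb was 2.89-fold above Rxra and 4.91-fold above Rxrg. Over counts without length correction Rxrb over Rxra came within the spread, at a log2 ratio of 0.30 in size. Rxra over Rxrg averaged 1.70-fold, but replicate 1 alone gave a log2 ratio of 0.31. The 14 NR1 receptors that pair with RXR summed to 120 and 124 TPM, 7.88 and 7.92 times the RXR sum. These are RNA levels over all transcripts of each gene, coding or not, and protein was not measured. The partner sum includes 16.64 and 15.05 TPM of Thra-201, which encodes a 492-residue form known not to bind hormone.

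Nr2c2 and Nr2c1 (TR4 and TR2), orphan repressors known in mouse erythroid cells for silencing embryonic globin genes, had 10.17 and 10.77 TPM, and 6.28 and 5.95 TPM. Nr2c2 was 1.71-fold higher over all transcripts of each gene, close to the limit for a pair to be apart. By counts without length correction the log2 ratio was 1.35. Over transcripts that encode both zinc fingers, Nr2c2 had 6.12 and 6.93 TPM and Nr2c1 6.29 and 5.95. On that measure the order changed between the libraries. The remaining NR2 genes were near 0. Hnf4a, a master regulator of hepatocytes, had 0.41 TPM in replicate 1 and 0.03 in replicate 2. Its relative Hnf4g had 3 and 0 counts, and Nr2e1, a factor of neural stem cells, 3 and 1. Nr2e3, a photoreceptor factor, had 0 counts in both libraries, which allows up to 0.0721 and 0.102 TPM at 3 counts.

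Subfamily NR3 held 16.0% in each library, with 4 of 8 members detected. Most of it was Esrrg (chr1:187608791-188214885), an oestrogen-related receptor that in mice drives the mitochondrial programme of heart muscle, at 24.96 and 26.77 TPM. Esrra had 5.81 and 4.76 TPM and Esrrb, known from trophoblast and embryonic stem cells, 1.16 and 1.15. Esrrg was 4.92-fold above Esrra and 22.4-fold above Esrrb. The glucocorticoid receptor Nr3c1 had 12.87 and 12.55 TPM, against 0.41 and 0.79 TPM for the mineralocorticoid receptor Nr3c2, a 22.3-fold difference. The oestrogen receptor Esr1 was just below the detection level at 0.93 and 0.91 TPM, while Ppard, at 1.00 and 1.10, was just above it. Esr2 had 0.17 and 0.34 TPM, and the progesterone receptor Pgr had 0 counts, which allows up to 0.0254 and 0.0360 TPM.

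The immediate early receptors of subfamily NR4 summed to 7.32 and 8.70 TPM. Nr4a1 (NUR77) had 5.10 and 5.75 TPM and Nr4a2 (NURR1) 2.09 and 2.89, a 2.20-fold difference. Nr4a3 had 8 and 2 counts, or 0.13 and 0.06 TPM. In subfamily NR5, Nr5a1, the steroidogenic factor SF-1, had 0 counts in both libraries, which allows up to 0.0409 and 0.0579 TPM, and Nr5a2 had 9 counts in each. Nr6a1, a germ cell factor that silences pluripotency genes in the mouse embryo, had 1.40 and 1.21 TPM. Nr0b2 (SHP), a receptor without zinc fingers that binds and represses other receptors, had 7.02 and 8.12 TPM. Nr0b1 (DAX1) had 5 and 0 counts, and Nr0b2 was 70.2-fold higher in replicate 1. In liver Nr0b2 is a known FXR target, and here it stood above Nr1h4 itself.

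Neighbours in the order of levels often could not be separated. Among the 27 detected members, 12 of 26 adjacent pairs overlapped between libraries. Rara, Esrrg and Thra formed one such run, Rarb and Nr2f2 another, and Nr1d2, Nr0b2 and Nr2f1 a further one. Nr1h2, Nr2f6 and Nr3c1 each stood apart from their neighbours in the order.

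Across the list of related genes, 24 of 29 pairs had at least 1 detected member and were compared. By levels over all transcripts of each gene, 21 were apart. Among these, Nr0b2 over Nr0b1 has no mean log2 ratio, because Nr0b1 had 0 counts in replicate 2. It was called apart from a bound of 70.2-fold. Members that were close in protein sequence could be far apart in level. The finger regions of Esrrg and Esrrb, read by translating the transcripts, were identical at 55 of 56 residues (98.2%), and their levels differed 22.4-fold. Those of Nr2f2 and Nr2f1 were also identical at 55 of 56 residues, with a 2.22-fold difference. Thra and Thrb matched at 50 of 58 residues (86.2%).

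**Figure D2:**
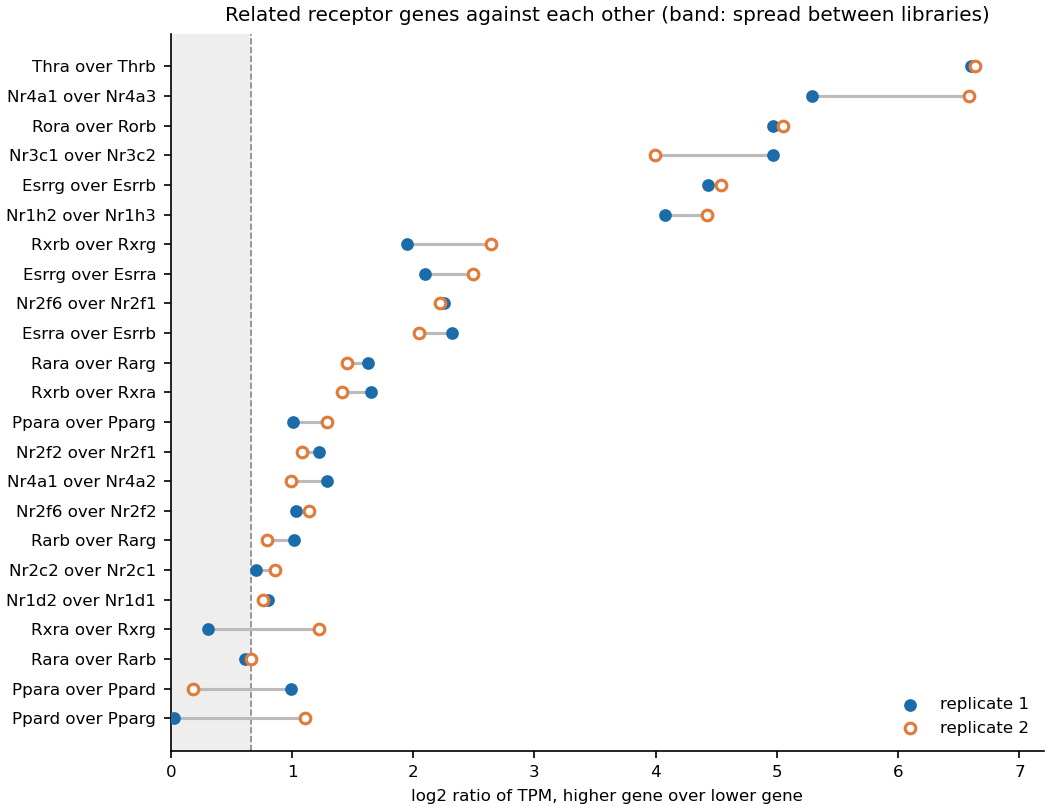
Log2 ratio of TPM, higher gene over lower gene, for pairs of related receptors in replicate 1 (filled) and replicate 2 (open), ordered by mean. The band up to 0.66 holds 95% of differences between the libraries over genes at 1 TPM or more in both. Thra over Thrb is at the top at 6.60 and 6.63, and the pairs at the bottom lie wholly or partly inside the band.

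Estimated levels of the annotated transcripts show which receptor forms the RNA could encode, and protein was not measured. Thra is the clearest case, because its 2 main transcripts encode proteins that differ in hormone binding. Thra-202 encodes the hormone-binding receptor of 410 residues (TRα1), and Thra-201 a form of 492 residues (TRα2) known not to bind hormone. They share the first 370 residues, which include the zinc fingers, and part at a splice site. The coding bases around that point are shown with the 30 shared bases in lower case, at chr11:98764376-98764405 on the plus strand of GRCm38, and the 30 bases that follow in each form in capitals. Thra-202 reads on into chr11:98764406-98764435, and Thra-201 joins the exon that starts at chr11:98768157-98768186.
Thra-201: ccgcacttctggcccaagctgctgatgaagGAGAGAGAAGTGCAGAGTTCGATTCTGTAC
Thra-202: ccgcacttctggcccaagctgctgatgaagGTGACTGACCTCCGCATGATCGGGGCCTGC

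Thra-201, the form that does not bind hormone, held 63.5% of Thra TPM in replicate 1 and 63.3% in replicate 2. In levels it had 16.64 and 15.05 TPM. The hormone-binding Thra-202 held 28.2% and 27.7%, at 7.40 and 6.58 TPM. The shares differed by less than 1 percentage point between the pools and lay far apart from each other. The last exon of Thra-201 shares 263 bases with Nr1d1 on the opposite strand. The expected counts of Thra and Nr1d1 were 1047.24 and 251.76 in replicate 2 and summed to 1299.00, a pattern given by reads that are divided between 2 genes.

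**Figure D3:**
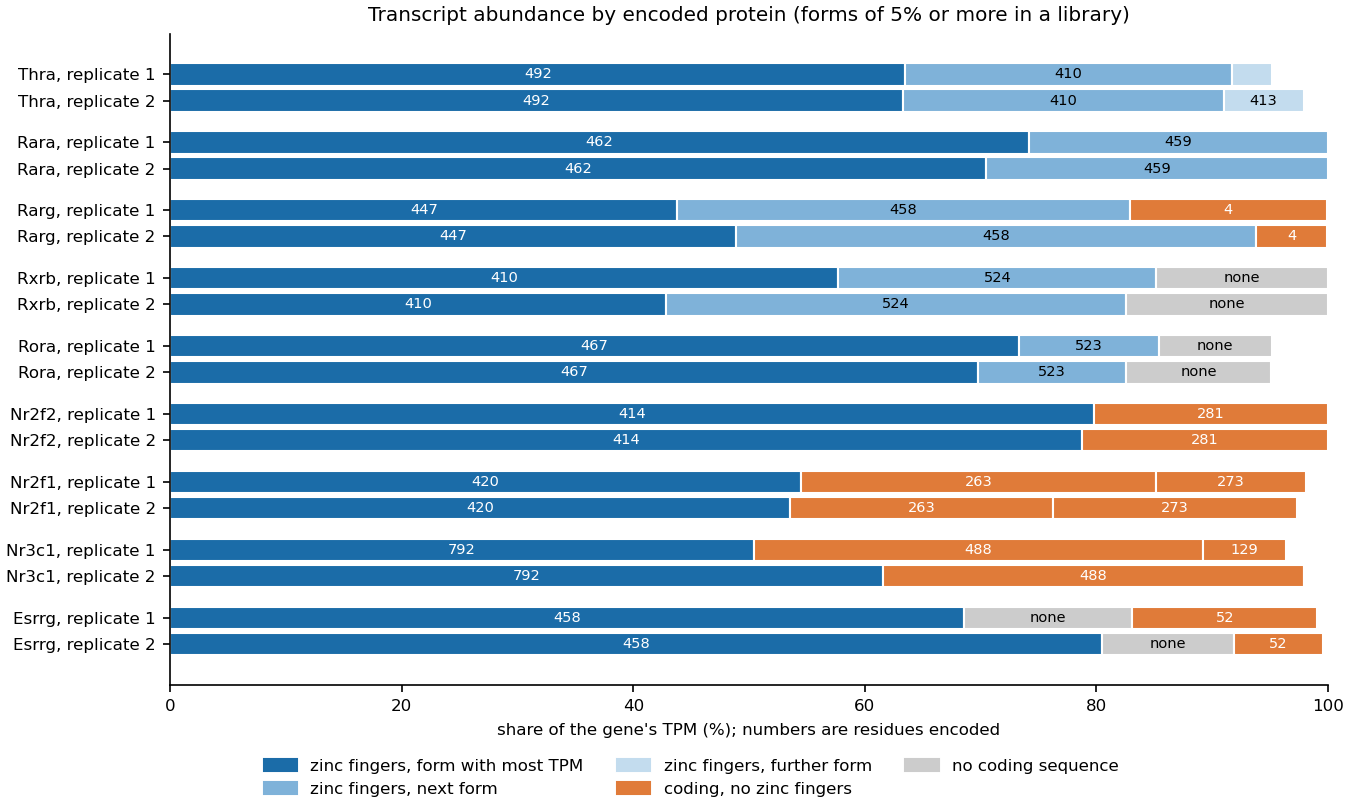
Share of TPM by encoded protein for 9 receptor genes in replicate 1 (upper bar) and replicate 2 (lower bar), with the number of residues written in each block and colours for forms with zinc fingers (blue), coding forms without them (orange) and transcripts without a coding sequence (grey). Thra is mostly the 492-residue form in both libraries. Nr2f2, Nr2f1 and Nr3c1 have large blocks whose annotated coding sequence, not checked for completeness, lacks zinc fingers.

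Other receptors also came in several forms. For Rara, 4 transcripts that encode the same 462-residue protein held 74.2% and 70.5% of TPM, and Rara-202, which encodes a 459-residue form, held 25.8% and 29.5%. Rarg was divided almost evenly between forms of 447 residues (43.8% and 48.9%) and 458 residues (39.1% and 44.9%). Rarb was listed with 1 transcript, of 448 residues, that held all of its TPM. Rora was mostly its 467-residue form, at 73.3% and 69.8%, with the 523-residue form at 12.1% and 12.8%. By counts these 2 Rora forms lay closer, at 55.9% and 53.5% against 39.6% and 42.3%, since the longer form has a transcript of 10878 bases. The 410-residue form of Rxrb led with 57.7% and 42.8%, ahead of the 524-residue form with 27.5% and 39.8%. By counts the 410-residue form was the higher in replicate 1, at 61.8% against 34.0%, and the lower in replicate 2, at 45.6% against 49.1%, so their order was not settled.

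Some transcripts of receptor genes have an annotated coding sequence without the zinc fingers. Whether these coding sequences are complete was not checked, so some may be fragments. Nr2c2-203 and Rarg-204, for example, were listed with only 4 residues each. For Nr2f2, the transcript Nr2f2-202 of 281 residues held 20.2% and 21.2% of TPM, a share that was steady between the pools. For Nr2f1, forms of 263 and 273 residues without fingers held 30.7% and 22.8%, and 12.9% and 20.9%. For Nr3c1, Nr3c1-208 of 488 residues held 38.8% and 36.3%, beside 50.4% and 61.6% for the full-length form of 792 residues. Short transcripts weigh more in TPM than in reads. By counts the finger-coding transcripts of Nr3c1 held 81.3% and 85.4%, those of Nr2f2 91.3% and 90.7%, and those of Esrrg 96.9% and 98.3% against 69.6% and 80.9% of TPM. When only transcripts that encode both fingers were summed, Ppard dropped below 1 TPM and Nr0b2 and Nr0b1 have none, and the leaders kept high levels, with 30.3 and 35.3 TPM for Nr1h2, 30.5 and 31.4 for Nr2f6, 25.5 and 27.0 for Rara, 25.0 and 23.3 for Thra, and 17.4 and 21.7 for Esrrg.

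Over the 27 detected members, 21 had the same leading transcript in both libraries, and in 16 it held over 50% of TPM in both. The exceptions were Rara, Ppara, Nr1h3, Rxrg, Nr3c1 and Nr6a1. For Nr3c1 the leader was Nr3c1-208, of 488 residues, in replicate 1 (38.8%) and Nr3c1-204, of 792 residues, in replicate 2 (52.2%). Nr3c1-204 had 17.9% in replicate 1, and Nr3c1-203, which encodes the same 792 residues, had 32.5% and 9.4%.

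Exons of 13 members overlap another gene, and the strand setting of the counting is not given in the sources used here. Rarb-201 shares 1793 bases (57.7% of its length) with Top2b on the opposite strand, a topoisomerase gene at 41.45 and 49.42 TPM. Both were listed with whole counts, 1404 and 1012 for Rarb, within 0.02. Nr2f6-201 shares 658 bases (29.7%) with Ocel1, which had 1.99 and 2.15 TPM, and their counts were not whole, while their sums were. Nr1i3-208 shares 1481 bases (49.7%) with the mitochondrial gene Tomm40l at 30.77 and 38.37 TPM, and the low Nr1i3 counts of 11.36 and 4.82 were likewise fractions of a divided pool. In all, 6 members had counts that were not whole, Nr2f6, Thra, Nr2c2, Nr2f1, Nr1d1 and Nr1i3. The levels of overlapping genes are uncertain to the extent that reads were assigned across strands.

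The libraries differed little for most receptors. Of the 36 members whose counts summed to at least 20, 30 were within 1.5-fold after TMM scaling, and the median size of the log2 ratio was 0.17, against 0.19 over all genes. This compares 2 libraries of 1 group, with no test. Past 2-fold, 3 members were higher in replicate 1 and 0 were lower, beside 4.28% and 1.80% of 16621 genes. Hnf4a had 50 counts in replicate 1 and 3 in replicate 2, a ratio of 10.5 with a 95% counting interval of 3.93 to 61.0. Pparg had 49 and 17 counts, a ratio of 2.06 (interval 1.19 to 3.90). Rorb had 40 and 14 counts, a ratio of 2.04 (interval 1.11 to 4.15), although its TPM was nearly level. All 3 are low genes, and with a summed count of 100 or more no member passed 2-fold. Rxrg had the widest ratio among the 27 detected members, at 127 and 60 counts and a ratio of 1.54 (interval 1.13 to 2.14).

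The markers of liver and yolk sac moved in the same direction as Hnf4a. All 12 were higher in replicate 1 and 11 passed 2-fold, with ratios of 1.84 to 6.49 and a median of 4.12. Afp, the main serum protein of fetal liver and yolk sac, had 5790 and 651 counts. No marker of this list was at 0. Among 5 foregut epithelium markers, Foxa2 (30 and 5 counts) and Nkx2-1 (74 and 8 counts) were also past 2-fold. Epcam (227 and 89 counts, ratio 1.86) and Cdh1 (139 and 88 counts, ratio 1.15) were not. Sox2, with 6 and 10 counts, was below the summed count of 20. The part of such cells in the Hnf4a counts was not tested.

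**Figure D4:**
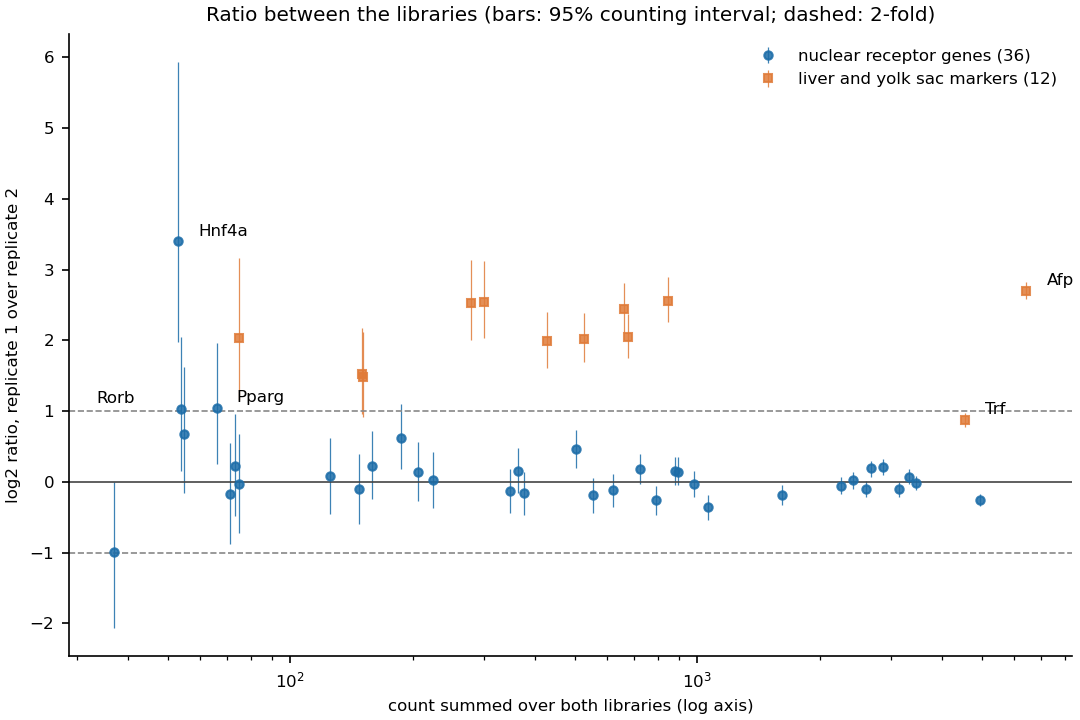
Log2 ratio of scaled counts, replicate 1 over replicate 2, against the count summed over both libraries (log axis) for 36 nuclear receptor genes (circles) and 12 liver and yolk sac markers (squares), with 95% counting intervals and dashed lines at 2-fold. The receptors with many counts lie near 0, Hnf4a lies at 3.40, and the markers lie between 0.88 and 2.70.

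RNA of most coregulator genes was detected. In 13 lists of coregulators, chaperones and known target or ligand-handling genes, 90 of 128 genes were detected, beside 56.4% of all protein-coding genes. Each list is described by its count and its median in each library. Of the 10 corepressors, 9 were detected, with a median of 22.1 and 20.7 TPM. Ncor1, a scaffold that holds histone deacetylase on unliganded receptors, led with 109 and 94.04 TPM, followed by the deacetylase Hdac3 with 53.18 and 60.05 and Tbl1x with 46.78 and 53.64. The skin and brain corepressor Hr was the exception at 0.05 and 0.22 TPM. All 13 coactivators measured were detected, with a median of 14.6 and 13.6 TPM. Carm1 (31.91 and 34.38), Med1 (34.25 and 29.96) and Pprc1 (33.55 and 27.07) led, and Ncoa1 was lowest at 4.66 and 4.39. Ppargc1a, a partner of the oestrogen-related receptors and singled out after its values were seen, had 28.49 and 32.09 TPM. The genes of the 10 chaperones that hold steroid receptors ready for hormone were all detected, with a median of 193 and 213 TPM, led by Hspa8 (1878 and 1971), Hsp90ab1 (1048 and 1058) and Hsp90aa1 (613 and 528), with Fkbp5 lowest at 3.72 and 3.13.

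The target and ligand-handling lists fell into those detected for the most part and those mostly below 1 TPM. On the retinoic acid list, 7 of 12 genes were detected, near the 56.4% of all protein-coding genes, and the median was 7.84 and 8.80 TPM. Tgm2 (95.91 and 95.46 TPM) and the retinoic acid carrier Crabp1 (37.03 and 42.08) were among the highest, and Cyp26c1, a degrading enzyme, had 0 counts. Aldh1a2, the enzyme that makes retinoic acid in the embryo, was singled out after its values were seen, and had 35.91 and 39.37 TPM. Of 10 LXR targets 8 were detected, with a median of 5.28 and 4.26 TPM, among them Apoe (258 and 271), Srebf1 (27.62 and 29.86) and Lpcat3 (26.13 and 30.48), while the sterol exporter genes Abcg5 (0.31 and 0.73) and Abcg8 (0.03 and 0.00) were not. Of 15 PPAR targets 13 were detected, with a median of 21.6 and 24.0 TPM, led by Fabp3 (377 and 415), Acaa2 (180 and 186) and Acadm (113 and 118), with Plin5 (0.24 and 0.13) and Ucp3 (0.01 and 0.00) below 1. The 3 PPAR genes summed to 3.96 and 2.86 TPM.

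Of 8 ERR targets 7 were detected, with a median of 120 and 125 TPM. The respiratory chain and citric acid cycle genes Atp5b (3384 and 3686), Sdhb (572 and 562) and Idh3a (265 and 299) led them, and Perm1 was below 1 at 0.53 and 0.43. The clock list had 13 of 14 genes detected and a median of 5.04 and 5.39 TPM, led by Nfil3 (25.98 and 31.25), Cry1 (10.54 and 13.95) and Cry2 (12.85 and 11.27), with Npas2 at 0.08 and 0.16. The list of corticosteroid targets and enzymes had 9 of 10 detected and a median of 9.25 and 10.0 TPM, led by Tsc22d3 (136 and 150), Mt2 (67.17 and 38.99) and Dusp1 (22.11 and 25.07), with Zbtb16 at 0.32 and 0.31. Many genes of these lists also respond to other factors, so a level on a list is not a measure of receptor activity.

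The remaining 4 lists were mostly below 1 TPM. Their medians were 0.190 and 0.480 TPM for thyroid hormone genes, 0 in both libraries for bile acid and xenobiotic genes, 0.470 and 0.0900 for vitamin D, and 0.0900 and 0.0700 for steroid synthesis. Of 8 thyroid hormone genes 2 were detected, among them the transporter gene Slc16a10 (6.78 and 8.23). The target Klf9 had 0.85 and 1.33 TPM, and the activating enzyme Dio1 had 1 and 0 counts. Of 9 bile acid and xenobiotic genes only the bile acid transporter subunit Slc51a was detected, at 2.24 and 2.98 TPM, followed by Slc10a1 (0.38 and 0.06) and Fgf15 (0.08 and 0.09), and Cyp7a1, Cyp8b1, Cyp3a11, Cyp2b10 and Slc51b had 0 counts. On the vitamin D list only the hydroxylase Cyp2r1 was detected, at 1.34 and 1.42 TPM. Lrp2 had 0.72 and 0.48 TPM, Gc 0.47 and 0.00, and Cyp24a1 0.00 and 0.03. Of 7 steroid synthesis genes 0 were detected, with Hsd3b1 at 1.64 and 0.82 TPM, Star at 0.82 and 1.02, Cyp17a1 at 0.82 and 0.72 and the aromatase gene Cyp19a1 at 0 counts.

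**Figure D5:**
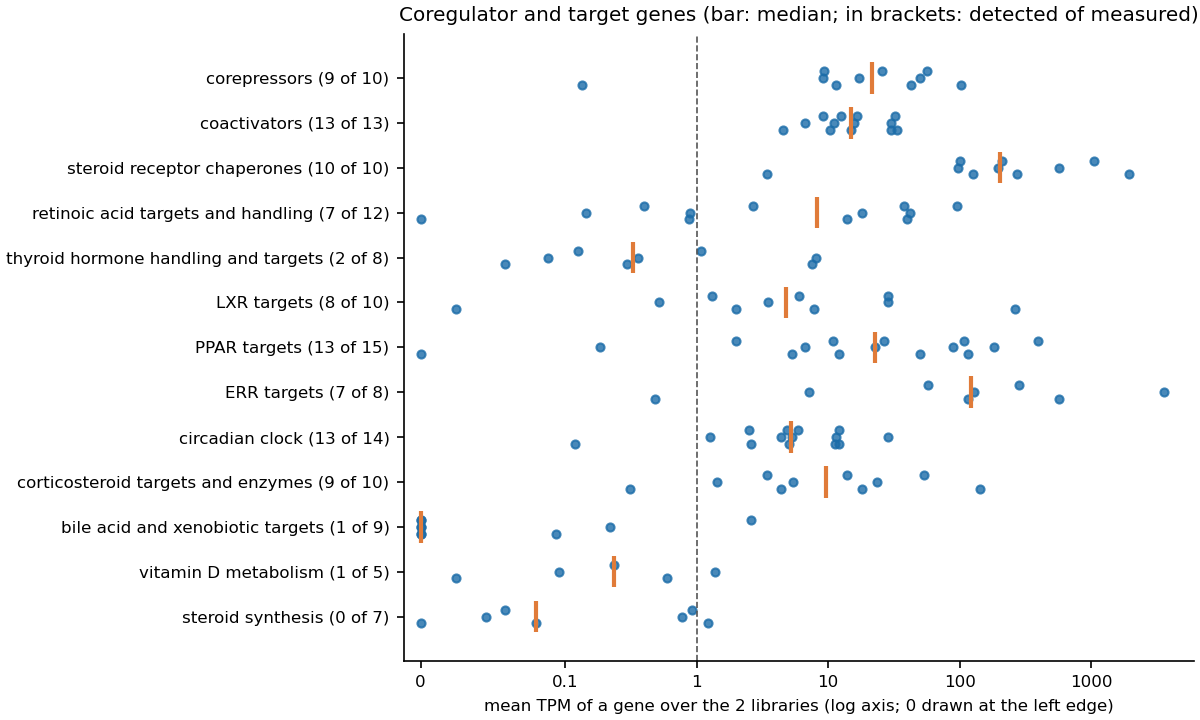
Mean TPM over the 2 libraries of each gene on 13 lists of coregulators, chaperones and target or ligand-handling genes (log axis, 0 at the left edge), with the list median as a bar, a dashed line at 1 TPM, and detected of measured genes in brackets. The chaperones have the highest median, and the bile acid, vitamin D, steroid and thyroid lists lie mostly left of the line.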

How the data were processed

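Both libraries are whole hearts of embryos of one age, and no condition was compared. The members, pairs and gene lists were chosen with earlier results of these data known, although the members were taken by symbol and not by their measured values. The authors deposited a gene and a transcript table per library with expected counts (estimated reads, not whole where reads were shared), TPM, their posterior means, and each transcript's percent of its gene's TPM, per the file headers. The deposited texts name mm10 with annotation M4. Aligner, quantifier and strand setting: not given in the sources used here. TPM is scaled over all rows, spike-ins and tRNAs included.

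Symbols and coordinates were matched by identifier to GENCODE M21 on GRCm38 (42462 of 43346 mouse genes), and all 239 member transcripts matched, 220 with the same length. Zinc fingers were found by the spacing of 8 cysteines in translated transcripts, and protein forms group transcripts with one translation. Coding sequences were translated as annotated, without a check that they are complete.

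With 1 group and 2 libraries the smallest two-sided sign-flip p is 0.5, so no p is given. That the libraries are biological replicates rests on the labels. The ratio between libraries used rounded expected counts scaled by TMM (edgeR 4.0.16 in R 4.3.3), with 0.5 added and a summed count of 20 or more, and was tested on simulated data. Intervals are exact binomial (Clopper-Pearson, 95%), and they and the limit of 3 counts cover counting error only. All members were named. Of each coregulator or target list the 3 highest genes, the lowest, and those under 1 TPM where 3 or fewer were so were named, with 2 exceptions stated. Some list genes and sequences are not reported here. Prmt1 was not matched and not used. DESeq2 1.42.0 size factors were an alternative. Python 3.11.15, numpy 2.4.6, pandas 2.3.3, scipy 1.17.1, Biopython 1.88 and matplotlib 3.10.9 were used.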

Additional observations from a re-analysis of the deposited data

How the results depend on the processing

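No paired analysis was possible because both libraries belong to 1 group. The 27 detected members became 21 to 35 over the alternatives, the extremes being 2 TPM and 10 counts. The median TPM of members, 1.74 as the mean of both libraries, was 2.40 with posterior mean TPM, 2.66 when TPM was rescaled over nuclear protein-coding genes without globin genes, and 7.14 over detected members only, and ran from 1.44 to 2.04 with each library left out. Without length correction the NR1 share was 42.1% in place of 47.4%, NR3 22.2% in place of 16.0%, the P-box class of Nr1h2 58.7% in place of 61.5%, the Nr2f class 17.9% in place of 19.7%, and the class of Esrrg 14.7% in place of 11.1%. With posterior mean TPM, NR3 held 15.8% and the class of Esrrg 10.7%. The 21 pairs apart became 20 to 23, and none of the 21 that had a mean log2 ratio changed direction. Nr0b2 over Nr0b1 had none, so its direction was not followed. Ppard against Ppara, not apart as reported, changed from a log2 ratio of -0.58 to 0.26 with counts without length correction. Members past 2-fold and higher in replicate 1 numbered 7 with no filter and 0 at a summed count of 100, and at 1.5-fold 5 were higher and 1 lower. The causes were not tested. Among values of single genes, pairs and smaller classes, 326 stayed on their side or within the spread and 68 moved past it. A further 7 came past the limit and 4 fell inside it. The 326 include levels and shares with a library left out. Those could not move, because each of 2 libraries always lies within their standard deviation of the mean, so they do not show stability. With posterior mean TPM, which could move a level, 26 members moved past the spread and 20 stayed within it. The summed count of 20 limits ratios between libraries, and genes under 10 counts carry wide counting error. The alternative restricted to finger-coding transcripts, with the gene TPM kept for Nr0b1 and Nr0b2, which have none, left 26 members detected and was chosen after seeing the data.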

Other observations

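Several receptor genes are neighbours, and adjacent genes had different levels. On chromosome 11 Thra and Nr1d1 overlap by 1075 bases at their 3′ ends, and Rara lies 152 kb further on. Thra had 26.22 and 23.77 TPM, Nr1d1 4.12 and 4.77, and Rara 25.54 and 26.97. On chromosome 14 their relatives lie in a comparable arrangement, Rarb 841 kb from Thrb and Thrb 166 kb from Nr1d2. There Rarb had 16.76 and 17.12 TPM, Thrb 0.27 and 0.24, and Nr1d2 7.17 and 8.08. The low gene was Nr1d1 in the first cluster and Thrb in the second. On chromosome 2 Nr5a1, with 0 counts, lies 8.83 kb from Nr6a1, with 220 and 144 counts.

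The level of Rorb shows how a ratio can depend on the unit. Its counts of 40 and 14 differed 2.04-fold after scaling, while its TPM of 0.15 and 0.13 did not. Calculated from the effective length listed in each library, 3 counts of Rorb were worth 0.0115 TPM in replicate 1 and 0.0283 TPM in replicate 2. That is a wider gap than the 0.0358 and 0.0507 TPM for Rarb, which has 1 transcript. It reflects an effective length of Rorb that differed between the libraries, and is not a separate observation. Pparg and Hnf4a differed in both units.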
